A study of Mus musculus with 12 samples.

Results

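Water, potassium and gap junction genes of astrocytes were followed across sorted microglia and astrocytes of mice treated with lipopolysaccharide (LPS, an outer membrane component of Gram-negative bacteria used to provoke inflammation). The set holds Aqp4, Kcnj10, Kcnj16, Atp1b2, Slc4a4, Gja1, Gjb6 and Hepacam, the 8 rows with these symbols among the 40853 gene symbols of the astrocyte and the microglia table. The genes were chosen by name for their known roles, with no cut on a measured value, but earlier results of these data were known. The mice were wild type (WT) or carried a knockout (KO) of Kpna4, which encodes importin α4, a protein of nuclear import. All mice were 8 to 9 weeks old, and all, the WT mice included, had received 1 mg/kg LPS into the peritoneum 20 h before dissection. Each of 6 animals, 3 WT and 3 KO, gave 1 library of microglia and 1 of astrocytes sorted by flow cytometry from the dissociated whole brain, which makes 4 groups of 3 libraries. The comparison asks how levels in each glial cell type after an inflammatory stimulus differ without importin α4. It cannot tell a different response from a difference present before LPS. The cells in which Kpna4 was lost, the part of the gene that was deleted and the sorting markers were not given in the sources used here, and untreated mice were not analysed here.

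Astrocytes clear the fluid around neurons of potassium, water, protons and transmitter. AQP4 is their water channel and is concentrated in the endfeet, the processes that wrap blood vessels. Kir4.1, encoded by Kcnj10, carries much of the potassium conductance of the cell and pairs with Kir5.1, encoded by Kcnj16, while the sodium pump takes up potassium at the cost of ATP. Connexin 43 (Gja1) and connexin 30 (Gjb6) form the gap junctions through which ions and metabolites spread between astrocytes. HEPACAM, also called GlialCAM, is an adhesion protein that brings the volume regulator MLC1 and the chloride channel ClC-2 to contacts between astrocytes.

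Microglia libraries held 10.3 M to 14.5 M counts, and astrocyte libraries held 10.7 M to 15.6 M. All 10 astrocyte markers and all 10 microglia markers were above 0 in every library. The astrocyte markers summed to 14384 to 19354 CPM (counts per 1 M counts of the library) in astrocytes and to 330 to 704 CPM in microglia. Microglia markers summed to 16135 to 21413 CPM in microglia and to 237 to 702 CPM in astrocytes, so the sorted populations carried the markers of their labels. Kpna4 itself was at 67.8, 96.4 and 89.0 CPM in WT and 78.6, 68.5 and 59.8 CPM in KO microglia, and at 40.2, 51.2 and 57.6 CPM in WT and 69.0, 43.8 and 80.2 CPM in KO astrocytes. Because the deleted part is unknown, these whole-gene counts do not check the genotype labels, and KO refers throughout to the libraries labelled KO.

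Per base of transcript, Atp1b2 was the most abundant of the 8 genes in astrocytes and Kcnj16 the least. Atp1b2 was at 946 ± 112 CPM per kb of merged exons (SD, n = 6 libraries) and Gja1 followed at 420 ± 52.4 CPM per kb. Gjb6, Slc4a4 and Aqp4 lay close together, at 163 ± 32.1, 160 ± 15.8 and 141 ± 19.0 CPM per kb, and their order was another when the longest coding transcript set the length. Hepacam at 109 ± 25.6 and Kcnj10 at 105 ± 17.3 CPM per kb were neighbours that did not differ beyond their spread. Kcnj16 stood at 38.7 ± 4.65 CPM per kb. Exon lengths came from an annotation of an older mouse build than the one named for the counts, so these levels are approximate. The 8 genes together took 0.680% to 0.885% of all astrocyte counts and 0.00914% to 0.0199% of all microglia counts.

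**Figure D1:**
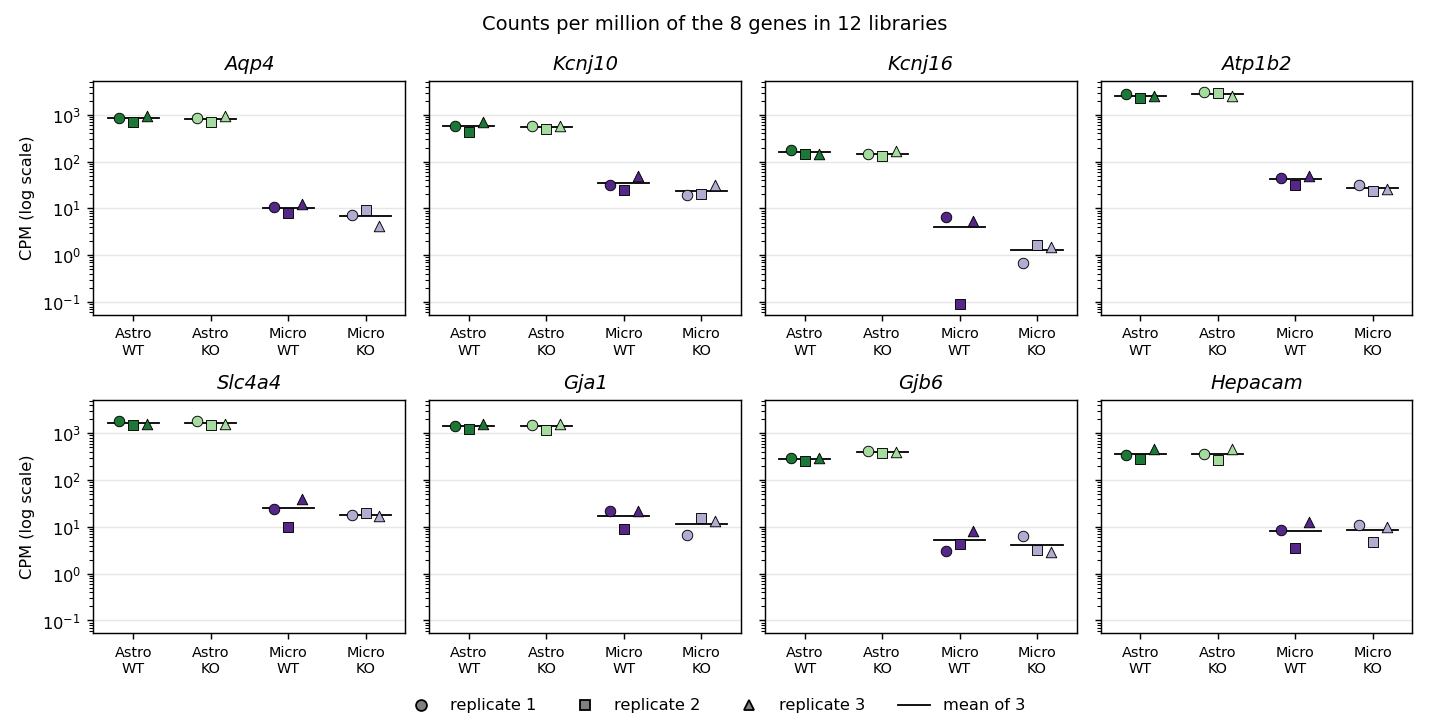
CPM (log axis) of each of the 8 genes in the 12 libraries, with symbols for the replicate number and a line at the mean of each group of 3. Every astrocyte library lies far above every microglia library for each gene, and Gjb6 is the gene whose KO astrocyte libraries (385 to 412 CPM) all lie above the WT ones (252 to 303 CPM).

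Aqp4, the water channel gene, was at close levels in astrocytes of both genotypes. WT astrocytes held 856, 706 and 954 CPM in replicates 1 to 3, and KO astrocytes held 841, 689 and 936 CPM. The ranges of the genotypes overlapped almost entirely. The log2 difference of KO minus WT was 0.09 (SE 0.18, 95% interval -0.30 to 0.47), with an edgeR adjusted p of 0.999. In microglia Aqp4 was at 10.6, 7.98 and 12.6 CPM in WT and 7.07, 9.20 and 4.20 CPM in KO, and the groups again overlapped. Another gene, A830021F12Rik, overlaps Aqp4 in RefSeq and their reads may not be separable, but it reached at most 2.74 CPM in astrocytes.

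The potassium channel genes did not pass the test between genotypes either. Kcnj10, the gene of Kir4.1, was at 576, 433 and 715 CPM in WT astrocytes and 573, 510 and 590 CPM in KO astrocytes. All KO values lay within the WT range, and the log2 difference was 0.09 (SE 0.20, interval -0.34 to 0.52). Kcnj16, whose product Kir5.1 alters the pH sensitivity of Kir4.1 channels, was at 179, 144 and 148 CPM in WT and 146, 129 and 169 CPM in KO astrocytes. The groups overlapped and the log2 difference was 0.02 (SE 0.19). The ratio of Kcnj10 to Kcnj16 counts, 3 to 4.83 in WT and 3.50 to 3.96 in KO astrocytes, overlapped between genotypes as well (2-sided exact permutation p = 0.9).

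Atp1b2 encodes the β2 subunit of the sodium pump, also known as the adhesion molecule on glia. It was at 2852, 2245 and 2470 CPM in WT and 3127, 2863 and 2566 CPM in KO astrocytes. KO replicates 1 and 2 lay above all WT libraries while KO replicate 3 lay inside the WT range. The log2 difference was 0.31 (SE 0.19, unadjusted p = 0.139, edgeR adjusted p = 0.999). Slc4a4, the electrogenic sodium bicarbonate cotransporter NBCe1 that links membrane potential to pH, was at 1811, 1507 and 1613 CPM in WT and 1871, 1478 and 1572 CPM in KO astrocytes. Both the highest and the lowest of these libraries were KO, and the log2 difference was 0.11 (SE 0.18).

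Hepacam had a 1.73-fold range among the astrocyte libraries, the widest of the 8 genes on the scale of library totals. It was at 351, 279 and 469 CPM in WT and 356, 272 and 461 CPM in KO astrocytes. The values in both genotypes spanned almost the same range, and the log2 difference was 0.10 (SE 0.21). At the other end, Slc4a4 had a 1.27-fold range from its lowest to its highest library. For 8 of 8 genes the lowest astrocyte library was WT replicate 2 or KO replicate 2. In these libraries 8 abundant non-coding transcripts took 32.0% and 39.5% of the counts, against 26.2% to 30.7% in the other astrocyte libraries. With these transcripts left out of the library totals, the lowest library was still a replicate 2 for 6 of 8 genes, and the ranges ran from 1.16-fold for Slc4a4 to 1.72-fold for Gjb6, with Hepacam at 1.62-fold.

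Of both connexin genes of the set, Gjb6 had the largest genotype difference of the 8 genes in astrocytes and Gja1 a small one. Gja1, the gene of connexin 43, was at 1442, 1239 and 1551 CPM in WT and 1526, 1155 and 1576 CPM in KO astrocytes. These groups overlapped, and the log2 difference was 0.12 (SE 0.17, interval -0.25 to 0.49). Gjb6, the gene of connexin 30, was at 296, 252 and 303 CPM in WT and 412, 385 and 408 CPM in KO astrocytes. All 3 KO libraries lay above all 3 WT libraries. The WT mean was 284 ± 28.0 CPM and the KO mean 402 ± 14.3 CPM (SD, n = 3 each), and the fitted KO level was 1.55-fold the WT level. The log2 difference was 0.63 (SE 0.18, interval 0.23 to 1.03), with an unadjusted p of 0.00504, the 17th smallest of 15755 genes, and an edgeR adjusted p of 0.999. The difference therefore did not pass the test across all genes. Over 14 alternatives the log2 difference of Gjb6 stayed between 0.53 and 0.68 and the adjusted p between 0.755 and 1.00, edgeR, DESeq2 and voom included. With the abundant non-coding transcripts left out of the totals, WT libraries held 398 ± 23.9 CPM of Gjb6 and KO libraries 595 ± 39.8 CPM (SD, n = 3 each), and the groups did not overlap on that scale either.

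Gjb2, the gene of connexin 26, lies near Gjb6 on mouse chromosome 14 and was the other connexin or pannexin gene with the smallest unadjusted p in astrocytes. It was at 22.7, 20.8 and 36.7 CPM in WT and 37.4, 35.5 and 49.8 CPM in KO astrocytes, from 256 to 775 counts. WT replicate 3 lay between KO replicates 2 and 1, so the groups overlapped slightly. The log2 difference was 0.74 (SE 0.27, unadjusted p = 0.0176, edgeR adjusted p = 0.999). In RefSeq 1 annotated gene, the non-coding Gm32912, stands between Gjb2 and Gjb6, and it was at 0 to 2.53 CPM. Gja3 on the other side of Gjb2 had counts in 1 of the 6 astrocyte libraries, at 2.63 CPM, and Cryl1 beyond Gjb6 was at 0.465 to 3.66 CPM. Connexin 26 is also made by leptomeningeal cells, and markers of leptomeningeal fibroblasts summed to 150 to 175 CPM in WT and 107 to 252 CPM in KO astrocyte libraries. Ependymal markers summed to 311 to 634 CPM in WT and 292 to 489 CPM in KO. Both sums overlapped between genotypes, and their part in the connexin values was not tested.

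The count ratio of Gja1 to Gjb6 was lower in KO. It was 4.87, 4.92 and 5.11 in WT and 3.70, 2.995 and 3.86 in KO astrocytes, with no overlap. A 2-sided exact permutation test gave p = 0.1, the smallest that 3 against 3 libraries allow. The ratio was chosen after the values were seen and uses the same Gjb6 counts as the difference above, so it adds no separate support.

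**Figure D2:**
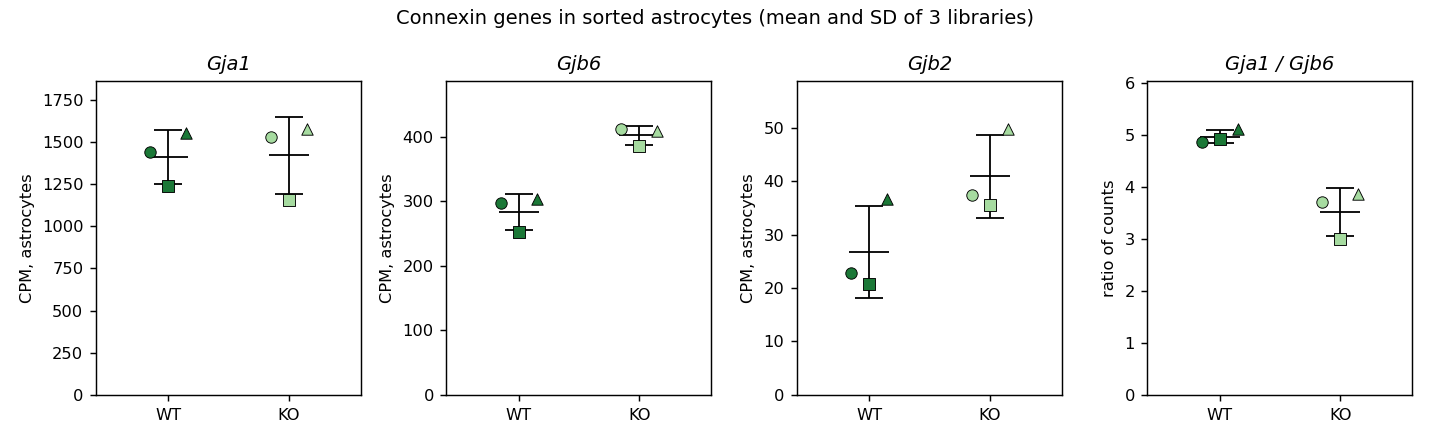
CPM of Gja1, Gjb6 and Gjb2 and the ratio of Gja1 to Gjb6 counts in WT and KO astrocyte libraries, with points for the libraries and the mean and SD of each group of 3, on axes that start at 0. Gja1 overlaps between genotypes, Gjb6 is higher in all 3 KO libraries, and the ratio is 4.87 to 5.11 in WT and 2.995 to 3.86 in KO.

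The start regions of the 3 connexin genes are shown because Gjb6 and Gjb2 had the smallest unadjusted p between genotypes among the connexins tested here, while Gja1 had a small difference. They are RefSeq sequences of the build GRCm38.p6, from 250 bases before to 50 bases after the annotated start, written 5′ to 3′ on the strand of the gene. They lie at chr14:57133562-57133861 (minus strand) for Gjb6, chr14:57104653-57104952 (minus strand) for Gjb2 and chr10:56377050-56377349 (plus strand) for Gja1. Capitals mark matches to 5 motifs searched on both strands, namely the kB consensus of NF-κB, the STAT site TTCNNNGAA, the AP-1 site TGANTCA, the GC box GGGCGG and the TATA box TATAAA.
Gjb6: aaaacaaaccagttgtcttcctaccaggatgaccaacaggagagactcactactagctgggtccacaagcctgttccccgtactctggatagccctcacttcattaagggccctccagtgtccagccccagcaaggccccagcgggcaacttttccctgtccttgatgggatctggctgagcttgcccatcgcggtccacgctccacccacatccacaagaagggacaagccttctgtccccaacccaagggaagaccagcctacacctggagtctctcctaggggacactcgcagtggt
Gjb2: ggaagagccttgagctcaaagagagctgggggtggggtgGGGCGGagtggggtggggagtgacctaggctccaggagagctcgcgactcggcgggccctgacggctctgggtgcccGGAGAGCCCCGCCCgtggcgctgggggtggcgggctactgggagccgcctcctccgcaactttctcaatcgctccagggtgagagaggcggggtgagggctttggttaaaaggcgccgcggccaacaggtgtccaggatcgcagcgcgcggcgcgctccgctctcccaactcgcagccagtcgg
Gja1: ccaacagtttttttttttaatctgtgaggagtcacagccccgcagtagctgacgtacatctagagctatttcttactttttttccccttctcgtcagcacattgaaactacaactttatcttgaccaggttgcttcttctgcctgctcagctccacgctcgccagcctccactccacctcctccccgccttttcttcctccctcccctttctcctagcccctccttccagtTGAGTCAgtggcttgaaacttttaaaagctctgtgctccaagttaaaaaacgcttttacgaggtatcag

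The Gjb6 window held none of the 5 motifs and had a GC content of 57.3%. The Gjb2 window had a GC content of 70.0% and held 1 kB match and 2 GC boxes, of which the second overlaps the kB match. In the Gja1 window, with a GC content of 47.7%, there was 1 AP-1 match. Among all 32851 windows of this length, 8.46% held a kB match, 8.30% a STAT site, 7.81% an AP-1 site, 35.7% a GC box and 13.6% a TATA box. Of the 8 genes, 6 had a window in the RefSeq table. The matches are letters in a window and were not tested against the expression values.

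Seen together, the genotype differences of the 8 genes in astrocytes were small and on the edgeR scale leaned one way. All 8 log2 differences were above 0, between 0.02 and 0.63 with a median of 0.11, whereas the median of all 15755 genes tested was -0.01. On the scale of library totals KO means exceeded WT means for only 3 of the 8 genes, Atp1b2, Gja1 and Gjb6, and for 7 of 8 when the abundant non-coding transcripts were left out of the totals. Leaving out 1 library left 6 to 8 of the differences above 0. The 10 astrocyte markers, none of them in the set, had 9 differences above 0 and a median of 0.15. At an edgeR adjusted p under 0.05, 0 of the 8 genes and 0 of all 15755 genes (0%) were called in astrocytes, and at an unadjusted p under 0.05 there were 1 of 8 and 373 of 15755 (2.37%), while DESeq2 called 4 genes, none of them in the set, and voom called 0. KO libraries lay wholly above WT libraries for 1 of the 8 genes, against 2.39% of all genes, and wholly below for 0 of 8, against 5.74%. Each library of a group came from another animal per the labels, so p-values measure the spread between 3 animals of each genotype.

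**Figure D3:**
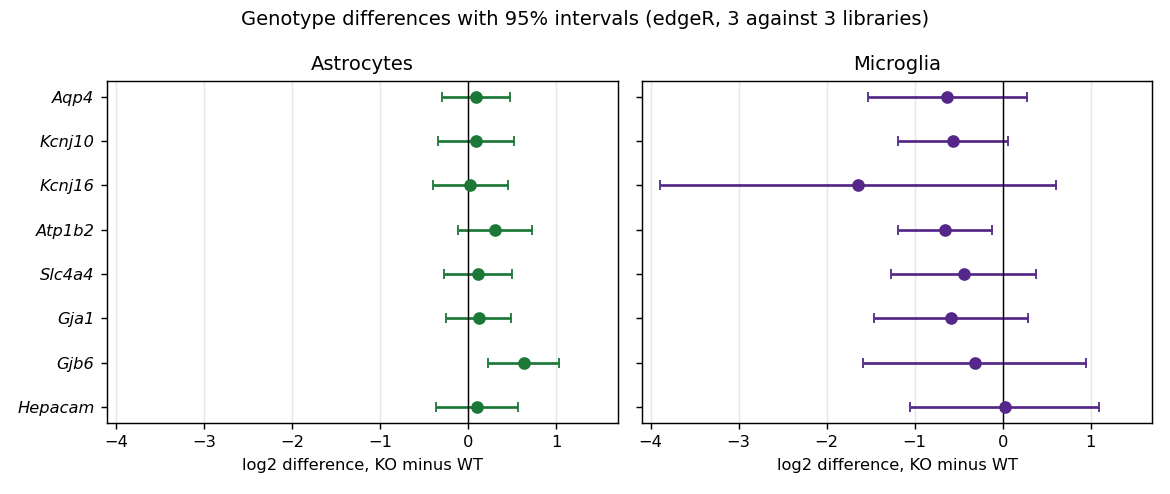
Log2 difference of KO minus WT with its 95% interval for each of the 8 genes, in astrocytes on the left and microglia on the right (edgeR, 3 against 3 libraries). In astrocytes the interval of Gjb6 (0.23 to 1.03) lies above 0 and the others span it, and in microglia the interval of Atp1b2 (-1.18 to -0.12) lies below 0.

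In the cell type comparison all 8 genes were far higher in astrocytes. The log2 difference of astrocytes minus microglia was 6.90 (SE 0.23) for Aqp4, a 119-fold difference, and 6.89 (SE 0.31) for Gja1, a 118-fold difference. These differed by less than their errors, and their order was another under some alternatives. Atp1b2 was 96.8-fold, Slc4a4 93.2-fold, Gjb6 89.2-fold, Kcnj16 79.0-fold and Hepacam 51.9-fold higher in astrocytes. Kcnj10 had the smallest difference, 23.5-fold, with a 95% interval of 4.08 to 5.03 on the log2 scale. The edgeR adjusted p ran from 5.15e-11 to 7.37e-08 over the 8 genes. Higher levels in astrocytes were called for 8 of 8 genes and for 36.4% of all 17294 genes, and a difference in either direction for 64.6% of them. The median log2 difference was 6.51 for the 8 genes, 5.74 for the 10 astrocyte markers and 0.19 for all genes. The genes were chosen as astrocyte genes, so these differences describe the sorted cells and are no independent finding. In bulk libraries, fewer cells of a type and less RNA per cell cannot be told apart.

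Kcnj10 kept the highest share of its astrocyte level in microglia. Taken within each animal, its microglia level was 5.55%, 5.76% and 6.78% of the astrocyte level in WT and 3.43%, 4.03% and 5.41% in KO. In 6 of 6 animals this was the highest share among the 8 genes, where the next highest ran from 1.67% to 3.66%. It also exceeded the shares of all 10 astrocyte markers in 4 of 6 animals, with Slc1a3 above it in KO replicate 1 at 3.89% and Slc39a12 above it in KO replicate 2 at 4.08%. The medians of the other members ran from 1.09% for Gja1 to 2.29% for Hepacam, and those of the astrocyte markers from 0.939% for Ntsr2 to 3.83% for Slc1a3. This rank was picked after the values were seen and carries no test. Kir4.1 is also known in oligodendrocytes, whose 8 markers summed to 267 to 1724 CPM in microglia and 825 to 3993 CPM in astrocytes, with none at 0. The median share in microglia was 65.3% of the astrocyte level for Mbp and 114% for Mag, markers of these cells. The part of these cells in the Kcnj10 value was not tested.

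**Figure D4:**
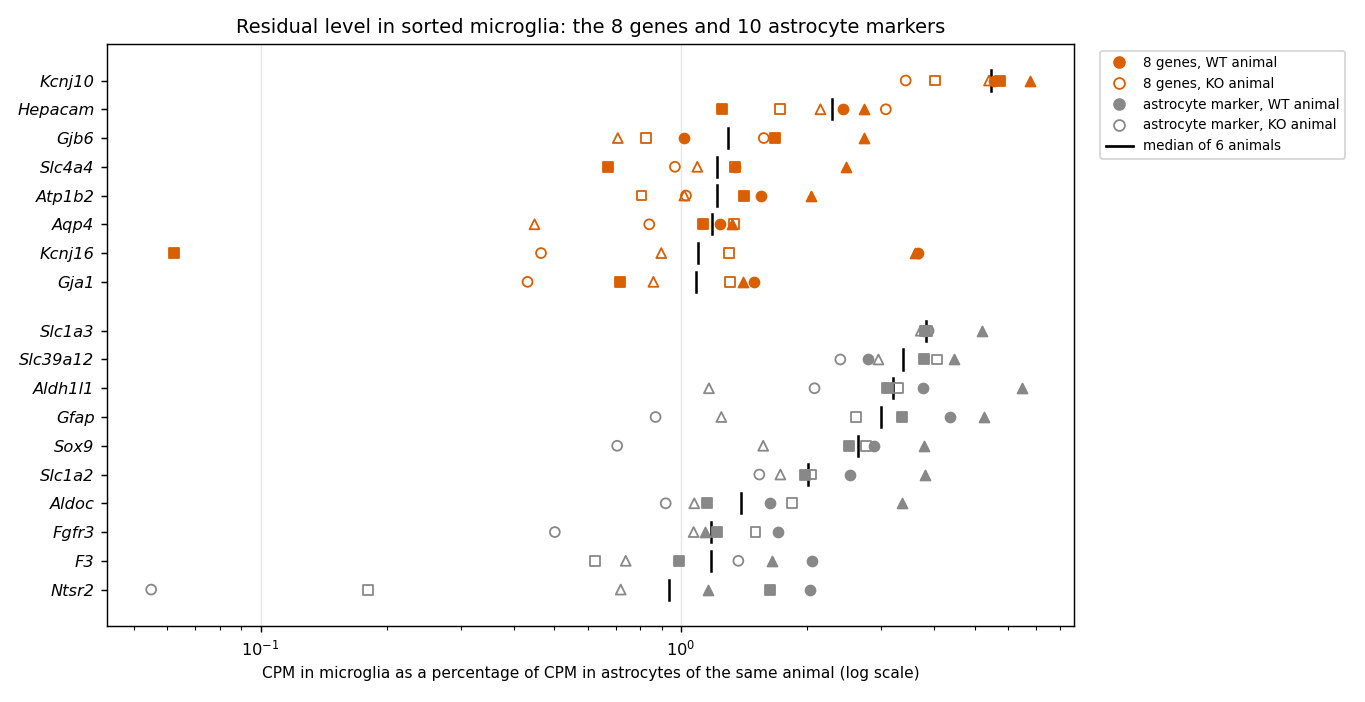
CPM in microglia as a percentage of CPM in astrocytes of the same animal (log axis) for the 8 genes and 10 astrocyte markers, with filled symbols for WT, open symbols for KO and a bar at the median of 6 animals. Kcnj10 has a median of 5.48%, above the 1.09% to 2.29% of the other members and the 0.939% to 3.83% of the markers.

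The low levels in microglia were mostly lower in KO, and none passed the test. Atp1b2 was at 44.3, 31.7 and 50.3 CPM in WT and 32.2, 23.1 and 26.2 CPM in KO microglia, and KO replicate 1 lay just above WT replicate 2. Its log2 difference was -0.65 (SE 0.25, unadjusted p = 0.0193, edgeR adjusted p = 0.610). Kcnj10 was at 32.0, 24.9 and 48.5 CPM in WT and 19.7, 20.6 and 32.0 CPM in KO microglia. Its highest KO library lay within the WT range, and the log2 difference was -0.56 (SE 0.29). Gja1 was at 21.5, 8.88 and 21.8 CPM in WT and 6.59, 15.1 and 13.6 CPM in KO, with a log2 difference of -0.58 (SE 0.41). Slc4a4 was at 24.4, 10.1 and 39.9 CPM in WT and 18.1, 19.9 and 17.2 CPM in KO, a log2 difference of -0.44 (SE 0.38). For both, WT replicate 2 was the lowest WT library and the KO libraries overlapped with the WT range. Gjb6 was at 3.02, 4.22 and 8.29 CPM in WT and 6.49, 3.18 and 2.89 CPM in KO microglia, with a log2 difference of -0.32 (SE 0.59). Hepacam was at 8.52, 3.50 and 12.8 CPM in WT and 10.9, 4.68 and 9.92 CPM in KO, with a log2 difference of 0.02 (SE 0.50). Neither gene separated the genotypes, and Hepacam had the difference nearest 0.

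Kcnj16 was the least abundant gene in microglia and its value rested on single libraries. It was at 6.56, 0.0897 and 5.32 CPM in WT and 0.678, 1.67 and 1.52 CPM in KO microglia, from 1 to 87 counts. WT replicate 2, with 1 count, lay below all KO libraries, while the other 2 WT libraries lay above them. The log2 difference was -1.65 (SE 1.05, interval -3.90 to 0.60), and it was -2.21 without WT replicate 2 and -1.06 without WT replicate 1. The edgeR adjusted p was 0.765, 0.466 and 0.999 in these 3 fits. With voom the log2 difference was -0.28 (adjusted p = 0.967), the value nearest 0 among 13 alternatives.

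As a group the 8 genes had 7 log2 differences below 0 in microglia and a median of -0.57, where the median of all 14191 genes was -0.0013. The 10 astrocyte markers had 10 differences below 0 and a median of -0.68. All lists of related genes described below also had medians below 0 in microglia. These ran from -2.07, for the 1 other aquaporin tested, to -0.39, for HEPACAM partners and volume regulators. The summed level of the 8 genes in microglia was 1.80%, 1.34% and 2.42% of that in astrocytes of the same animal in WT and 1.15%, 1.303% and 1.298% in KO. For the 10 astrocyte markers the shares were 2.69%, 2.29% and 3.91% in WT and 1.85%, 2.38% and 1.94% in KO. Sums of markers of other cell types also had lower means in KO microglia, but many overlapped between genotypes. Oligodendrocyte markers summed to 267 to 1724 CPM in WT and 299 to 769 CPM in KO. Border macrophage markers summed to 110 to 237 CPM in WT and 128 to 212 CPM in KO. Endothelial markers summed to 19.1 to 76.4 CPM in WT and 21.8 to 28.0 CPM in KO. Neuron, neutrophil and oligodendrocyte precursor sums overlapped too. The 4 choroid plexus markers, none at 0, summed to 880 to 2201 CPM in WT and 355 to 894 CPM in KO. The 5 leptomeningeal fibroblast markers summed to 36.1 to 72.6 CPM in WT and 19.2 to 31.3 CPM in KO, with Dcn or Lum at 0 in some libraries. The 5 ependymal markers summed to 6.56 to 11.3 CPM in WT and 3.88 to 5.52 CPM in KO, and the 5 mural markers to 12.2 to 28.1 CPM in WT and 4.36 to 14.4 CPM in KO. Up to 2 markers of each of these last 2 lists were at 0 in a library, but not Foxj1, Pdgfrb or Rgs5. The part of any of these markers, or of the astrocyte markers, in the microglia differences of the 8 genes was not tested. WT replicates 1 and 3 had the highest shares of both lists, and without WT replicate 3 the median difference of the 8 genes was -0.34, with 3 of them above 0. An adjusted p under 0.05 was reached by 0 of 8 genes and 0 of all 14191 (0%) with edgeR, an unadjusted p under 0.05 by 1 of 8 and 7.42% of all, and genotypes without overlap by 0 of 8 and 13.1% of all. DESeq2 called 41 microglia genes and voom 0, and none was one of the 8 genes.

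Whether the genotype difference itself was another in astrocytes than in microglia was tested as an interaction in 1 fit of all 12 libraries. With edgeR 0 of the 8 genes and 0 of 17294 genes (0%) were called, DESeq2 called 62 genes outside the set and voom 0, and with edgeR 3 of 8 against 6.37% of all had an unadjusted p under 0.05. Atp1b2 had a difference between cell types of 1.07 on the log2 scale (SE 0.34, unadjusted p = 0.00706, edgeR adjusted p = 0.561). Gjb6 had 1.07 (SE 0.47, edgeR adjusted p = 0.748) and Aqp4 had 0.83 (SE 0.37, edgeR adjusted p = 0.757). Single animals moved these values: without KO replicate 2 that of Atp1b2 was 0.70, and without KO replicate 3 that of Aqp4 was 0.30. Gjb6 was at 0.55 without WT replicate 3 and at 0.68 without KO replicate 2 or 3. The median over the 8 genes was 0.82, which is 0.67 above the median of all genes, 0.16. With the abundant non-coding transcripts left out, the medians were 0.65 for the 8 genes and 0.0028 for all genes, so the set's distance from all genes was 0.65. The 10 astrocyte markers had a median of 0.96 in the same contrast, with all 10 above 0. Without a filter on low counts the interaction of Kcnj16 passed the edgeR threshold, at 1.61 with an adjusted p of 0.0473, and this was the only alternative in which a genotype result of the set did.

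Related genes from lists fixed by function were measured beside the set. For scale, 6289 of all 17294 genes (36.4%) were called higher in astrocytes and 4877 lower. The endfoot anchoring complex holds AQP4 at the vessel through dystrophin and the syntrophins, and 12 of its 14 genes were called higher in astrocytes and 1 lower. Dmd, the dystrophin gene, led with a log2 difference of 6.86 (SE 0.27, edgeR adjusted p = 8.59e-11). Between genotypes in astrocytes 5 of these genes were above 0 and 9 below, with a median of -0.03, and the smallest unadjusted p was 0.0967, for the syntrophin gene Sntb1 at -0.43. Among the partners of HEPACAM and other volume regulators, 5 of 7 were called higher in astrocytes and 2 lower. Mlc1, whose product binds HEPACAM, measured 332 ± 76.5 CPM in WT astrocytes and 333 ± 58.6 CPM in KO astrocytes (SD, n = 3 each) and 6.29 higher on the log2 scale than in microglia. In this list Lrrc8a, a subunit of volume-regulated anion channels, had the smallest genotype p in astrocytes, 0.0990 unadjusted, at 0.32.

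Of the 8 sodium pump genes, 6 were called higher in astrocytes and 2 lower. The genotype differences of this list in astrocytes had a median of 0.07, and Fxyd1, the phospholemman gene that regulates the pump, had the smallest unadjusted p, 0.184, at 0.39. Among 11 other potassium channels and cotransporters, 4 were called higher in astrocytes and 3 lower, close to the shares of all genes. Kcnk2, a 2-pore potassium channel gene also called TREK-1, led at 5.28, and Kcnj6 had the smallest genotype p, 0.157 unadjusted, at -1.37 from 14 to 168 counts.

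Of 6 other aquaporins listed, 3 passed the filter on low counts in the fit of both cell types, and all 3 were called higher in astrocytes. Aqp1, a water channel known from the choroid plexus and named here after its values were seen, measured 46.9 ± 16.2 CPM in WT astrocytes and 44.9 ± 9.70 CPM in KO astrocytes (SD, n = 3 each). WT microglia held 12.3 ± 7.84 CPM of Aqp1 and KO microglia 2.93 ± 0.331 CPM (SD, n = 3 each), with a log2 difference of -2.07 (SE 0.49, unadjusted p = 9.6e-04, edgeR adjusted p = 0.439). Aqp9, a channel for water and glycerol, measured 4.36 ± 1.66 CPM in WT astrocytes and 3.66 ± 1.44 CPM in KO astrocytes (SD, n = 3 each), and in microglia it had counts in 1 of 6 libraries. Aqp11 measured 7.08 ± 1.90 CPM in WT astrocytes and 11.7 ± 1.16 CPM in KO astrocytes (SD, n = 3 each), with a log2 difference of 0.86 (SE 0.41, unadjusted p = 0.0605, edgeR adjusted p = 0.999). Among 12 genes of bicarbonate, proton and lactate handling, 6 were called higher in astrocytes and 3 lower. Car4, a carbonic anhydrase on the outer cell surface, had the largest cell type difference of this list, 5.23. It measured 13.5 ± 4.91 CPM in WT astrocytes and 24.5 ± 5.62 CPM in KO astrocytes (SD, n = 3 each), a log2 difference of 1.01 (SE 0.39, unadjusted p = 0.0241, edgeR adjusted p = 0.999). Connexins and pannexins other than Gja1 and Gjb6 were called higher in astrocytes for 7 and lower for 1 of 10 genes tested, with Gjb2 in the lead at 5.89. In astrocytes 9 of these 11 listed genes passed the filter, and their genotype differences ran from -2.28 to 1.20 with a median of -0.23.

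**Figure D5:**
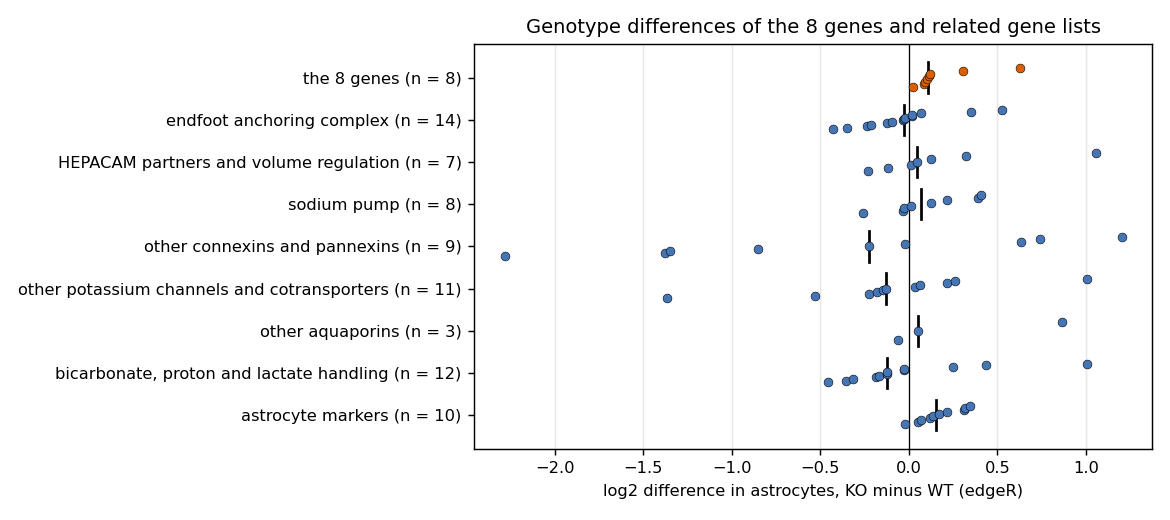
Log2 difference of KO minus WT in astrocytes (edgeR) for the 8 genes, 7 lists of related genes and the astrocyte markers, with 1 point for each gene that passed the filter and a bar at each list's median. The 8 genes lie between 0.02 and 0.63 with a median of 0.11, and the astrocyte markers have a median of 0.15. The medians of the 7 related lists lie between -0.23 and 0.07.

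Across the 6 astrocyte libraries the 8 genes did not all follow 1 pattern. The Pearson correlation of a gene with the mean of the other 7, over 6 libraries that differ in total and in non-coding share, was 0.90 for Gja1 and 0.89 for Aqp4. It was 0.79 for Kcnj10, 0.78 for Hepacam, 0.54 for Slc4a4 and 0.46 for Kcnj16, and lowest for Gjb6 at 0.32 and Atp1b2 at 0.30. Likeness to the mean of the set was ranked over 9046 other genes with a mean of at least 10 CPM in astrocytes. Symbols that are clone or gene model names were left out of this ranking. The 5 most alike were Rapgef5 (r = 0.995), Dnpep (r = 0.994), Slc39a12 (r = 0.994), Kpnb1 (r = 0.992) and Abcd4 (r = 0.989). Slc39a12, which encodes a zinc transporter, is also 1 of the 10 astrocyte markers. These coefficients rank likeness over 6 libraries that share the same scaling and are given without a test.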

How the data were processed

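RNA of sorted microglia and astrocytes was sequenced from 6 animals, after SMART-Seq HT amplification and Nextera library preparation, per the labels' protocols. STAR 2.7.10b, RSEM 1.3.3, limma and the build GRCm39 are named in the submitters' processing notes, with no role given. The authors deposited estimated counts per gene symbol, 1 table for each cell type, without normalization. Of the values above 0, 3.44% to 5.27% were not whole at a tolerance of 0.001, and counts were rounded before any test. The kit carries no molecular identifiers, so errors from counts do not separate amplified copies. Libraries of 1 group differed by more than sampling noise (chi-square per degree of freedom 32.0 to 127).

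CPM were computed from the rounded counts and library totals. Genotypes were compared within each cell type with edgeR's quasi-likelihood test (edgeR 4.0.16, R 4.3.3; TMM factors, filterByExpr with a minimum count of 10, Benjamini-Hochberg adjustment over all genes, called under 0.05). The interaction and the cell type contrast came from 1 fit of all 12 libraries. Alternatives were DESeq2 1.42.0, limma voom with quality weights (limma 3.58.1), DESeq2 size factors in edgeR, no filter, a minimum count of 50, the 8 abundant non-coding transcripts (Malat1, Rmrp, Rpph1, Rn7sk, mt-Rnr1, Rn7s2, mt-Rnr2 and Rn7s1) left out, a block, all libraries in 1 fit and each replicate left out. The edgeR, DESeq2 and voom steps were tested on simulated data that spread less between libraries than these data did. That test checks the steps and does not give their power here.

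The 8 genes, the lists, the tests and the rule for named genes were chosen with earlier results of these data known. The rule named, per list, the gene with the smallest unadjusted p between genotypes in astrocytes, since none was called, and the called gene with the largest cell type difference, plus the 5 genes most correlated with the set's mean log2 CPM. A gene that the rule named for the sodium pump list is not reported here. The motifs and neighbouring genes were chosen with the values in view. Microglia and astrocyte libraries pair by the animal number in the labels, and their deviations from the group means correlated at 0.04, 0.18 and 0.21 in WT and 0.12, -0.02 and 0.18 in KO animals. Promoter sequences are from RefSeq (GRCm38.p6), and no coordinates of the counted genes were used.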

Additional observations from a re-analysis of the deposited data

How the results depend on the processing

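Between genotypes, edgeR called 0 genes in astrocytes, in microglia and for the interaction. DESeq2 called 4, 41 and 62, and fits without a filter on low counts called 17, 121 and 160. With a replicate block microglia gave 30 genes, and with all 12 libraries in 1 fit 41. With 1 replicate left out the counts were 0 to 1 in astrocytes, 0 to 2 in microglia and 0 to 6 for the interaction. The labels do not pair WT with KO animals by replicate number. Deviations of same-numbered WT and KO microglia correlated at 0.098, 0.066 and 0.328, and those of astrocytes at -0.0034, 0.064 and 0.397. Between other numbers they correlated at -0.238 to 0.149 in microglia and -0.259 to 0.183 in astrocytes. Not every library correlated best with its own number, and whether a number marks shared handling was not tested. The block, by replicate number or by animal, changed no call of the 8 genes. All 104 alternatives of their cell type differences kept direction and call.

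Directions turned mostly where values were near 0, but Slc4a4 and Gjb6 in microglia, at -0.44 and -0.32 in the main fit, turned too. With 1 replicate left out, the astrocyte differences of Kcnj10, Kcnj16 and Hepacam ran from -0.046 to 0.22, -0.063 to 0.13 and -0.054 to 0.26. In microglia those of Slc4a4, Gjb6 and Hepacam ran from -0.81 to 0.051, -0.76 to 0.17 and -0.34 to 0.45. Hepacam in microglia was also at -0.040 with voom, -0.013 with a minimum count of 50 and -0.091 with all 12 libraries in 1 fit. Its interaction ran from -0.17 to 0.29. The cause was not tested. Kcnj16 in microglia gave no value at a minimum count of 50. The largest p of Gjb6 in astrocytes, 0.0594 unadjusted, came with all 12 libraries in 1 fit, and 13 of 14 alternatives were under 0.05. With 3 animals per genotype, 95% intervals ran from -0.30 to 0.47 for Aqp4 in astrocytes and, from 1 to 87 counts, from -3.90 to 0.60 for Kcnj16 in microglia.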
